A study of Mus musculus with 8 samples.

Results

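Dscam, Mrc2, Car2, Lrrc9, Plekhg1, Spo11 and Klk1b27 are 7 genes best known from cells other than T cells, and all 7 had higher signals in PD-1hi CD8 T cells of leukaemia-bearing mice after the interleukin-10 receptor was blocked. Each was taken from the deposited array values by its gene symbol, as a row with exactly 1 symbol, and each has 1 such row. They are 7 of 22180 genes with a row of this kind. They were picked because they stood among the genes with the largest rise in this contrast, so their levels and differences are given as a description, without a test.

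The cells came from female C57BL/6 mice that had received chronic lymphocytic leukaemia cells of Eµ-TCL1 mice, whose TCL1 transgene is expressed in B cells; this transplant is shared by both groups. The hosts were otherwise not altered, as far as the labels say. From week 3 after transplantation the mice were given either an antibody that blocks the IL-10 receptor (anti-IL-10R, 4 arrays) or an isotype control antibody (4 arrays), for 2 weeks, and spleens were taken at week 5. The sorted cells were Lin-, TCRb+, CD8+, CD127low, CD44int-hi and PD-1hi. There was no group of mice without leukaemia, ages are not given in the labels, and the labels do not say that each array is a separate animal, so any spread measured here is a spread between arrays.

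Interleukin 10 is a cytokine that restrains immune cells through a receptor signalling by JAK kinases and the transcription factor STAT3. PD-1hi CD8 T cells are antigen-experienced killer cells that carry high amounts of an inhibitory receptor. The 7 genes belong to unrelated families: Dscam and Mrc2 encode surface proteins, Car2 a metabolic enzyme, Plekhg1 a guanine nucleotide exchange factor, Lrrc9 a little-studied repeat protein, Spo11 a meiotic enzyme and Klk1b27 a secreted protease.

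Signals are log2 values, so a difference of 1 is 2-fold. Each row has its own probes, so levels of different genes are not compared. Over the 12019 genes whose mean reached 5.24, the median of all rows, isotype replicate 1 stood apart: its Pearson correlation with other arrays was 0.915 to 0.929, against 0.962 to 0.986 among the other 7 (across genes, which are not independent replicates), so values are also given without it. Among markers of the sort, the isotype and anti-IL-10R means were 12.33 and 12.60 for Cd3e, 10.81 and 11.12 for Cd8a, 10.95 and 11.45 for Pdcd1 (PD-1) and 6.44 and 6.63 for Cd44. Il7r, which encodes CD127, lay below the limit at 3.57 and 3.60. Over 9 measured markers the summed linear signal ran from 20806 to 25015 with isotype antibody and from 27206 to 28477 with blockade. Limma called 0 of the 8 tested, and 5 were higher at an unadjusted p below 0.05, as were 11.5% of all tested genes, with 8.53% lower (20% in either direction). With a trended robust variance, limma called Cd3e, Cd3g and Cd8a higher (adjusted p = 0.0299, 0.0448 and 0.0307). That fit called 225 of the 12019 genes higher. The part of this shift in the differences below was not tested. In bulk RNA, a change in the share of cells that express a gene and a change in RNA per cell cannot be told apart.

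In limma's fit, 148 genes were called higher after blockade, which is 1.23% of the 12019 tested (adjusted p below 0.05), and 156 lower, which is 1.3%; after quantile normalization these were 204 and 427. The size of the difference among genes called higher is the value that chose the 7, so their place is given as a description only: ranks 2 (Klk1b27), 4 (Plekhg1), 6 (Lrrc9), 7 (Dscam), 9 (Mrc2), 10 (Spo11) and 11 (Car2). Plekhg1 and Klk1b27 passed the filter on dim genes only through their anti-IL-10R arrays. Ranks 1, 3, 5 and 8 were Cd200r2, Slco2a1, Mxd4 and Maf. The lowest anti-IL-10R array lay above the highest isotype array for all 7, as it did for 9.32% of tested genes (5.99% the other way round); since the genes were chosen from this contrast, nothing is read from that count. A difference of at least 2-fold without overlap was seen in 42 genes, 0.349% of those tested.

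**Figure D1:**
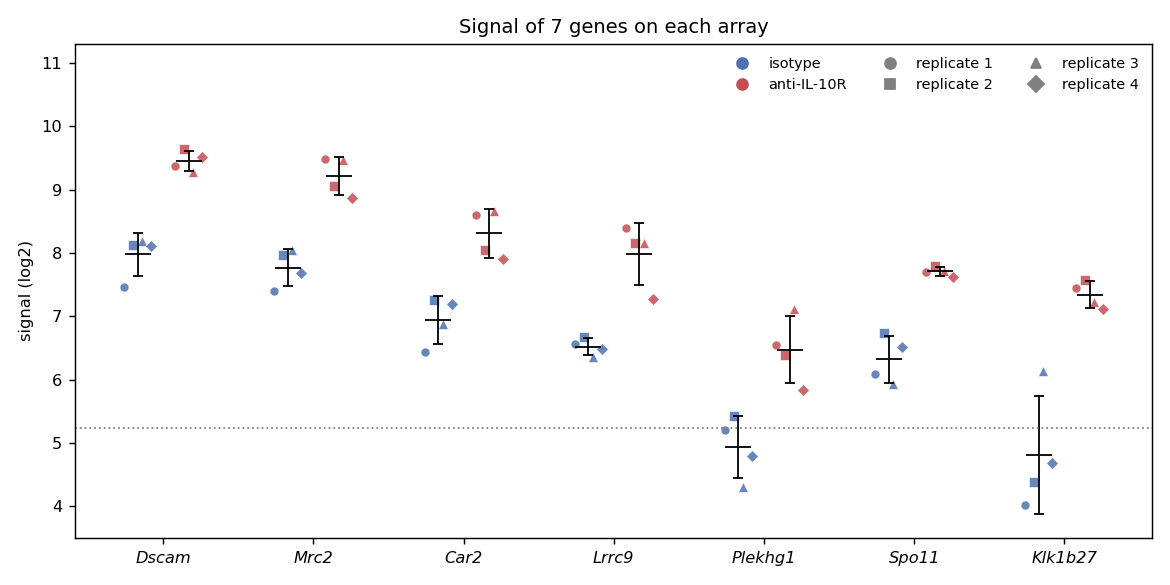
Signal (log2, vertical axis) of the 7 genes on each of 4 isotype (blue) and 4 anti-IL-10R (red) arrays, with bars for the mean and SD; the dotted line is the limit for dim genes, 5.24. The anti-IL-10R arrays lie above the isotype arrays for each gene, and the isotype means of Plekhg1 and Klk1b27 lie below the limit.

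Dscam encodes the Down syndrome cell adhesion molecule, an immunoglobulin superfamily receptor that binds itself on neighbouring neurites. In the retina and elsewhere in the nervous system it keeps branches and cell bodies of like neurons apart, and it can act with netrin receptors in axon guidance. On the isotype arrays its signal was 7.47, 8.13, 8.19 and 8.11 for replicates 1 to 4, and on the anti-IL-10R arrays 9.37, 9.64, 9.28 and 9.51. Isotype replicate 1 stood below the 3 other isotype arrays, which lay close together, and the 4 anti-IL-10R arrays were also close together. The means were 7.98 ± 0.34 (SD, n = 4) and 9.45 ± 0.16, a difference of 1.47 ± 0.17 (SE), or 2.77-fold. Without isotype replicate 1 the difference was 1.30, the lowest value with any array left out.

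Genes related to Dscam in neuronal adhesion and guidance gave no call. Of 34 listed genes 33 were measured, and only 10 passed the filter on dim genes. Limma called 0 of the 10, where it called 2.53% of all tested genes, and 1 had an unadjusted p below 0.05, against 20% of all tested genes. Dscaml1, its closest paralog, had dim means of 4.75 and 5.03, with groups that did not overlap. Dcc, the netrin receptor, was dim as well, at 3.87 and 4.05. Ntn1, which encodes netrin, differed by 0.29 ± 0.12 (SE, limma adjusted p = 0.204) and the adhesion molecule L1cam by 0.39 ± 0.38 (adjusted p = 0.624). The median difference of the 33 was 0.06, against −0.02 over all 22180 genes.

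The start region of Dscam in RefSeq is rich in G and C, and that of Plekhg1 is not. Both are shown here for their unlike base composition, whose part in the differences was not tested. They cover 250 bases before to 50 bases after the RefSeq start, in GRCm38.p6, at chr16:97170686-97170985 on the minus strand for Dscam and chr10:3872417-3872716 on the plus strand for Plekhg1. Capitals mark CG dinucleotides.
Dscam: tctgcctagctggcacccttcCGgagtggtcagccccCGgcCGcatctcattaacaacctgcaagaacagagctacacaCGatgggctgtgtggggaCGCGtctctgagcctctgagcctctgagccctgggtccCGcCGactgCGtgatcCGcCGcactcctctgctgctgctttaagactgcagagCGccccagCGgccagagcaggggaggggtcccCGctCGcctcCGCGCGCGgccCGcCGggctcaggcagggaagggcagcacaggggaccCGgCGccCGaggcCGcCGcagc
Plekhg1: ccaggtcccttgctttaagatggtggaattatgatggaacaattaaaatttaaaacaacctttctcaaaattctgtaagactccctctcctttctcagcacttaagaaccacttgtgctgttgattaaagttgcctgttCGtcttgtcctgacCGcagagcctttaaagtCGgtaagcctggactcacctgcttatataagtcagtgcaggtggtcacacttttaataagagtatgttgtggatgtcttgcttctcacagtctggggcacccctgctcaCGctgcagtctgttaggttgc
The Dscam region holds 26 CG dinucleotides and 70% G or C, which is more G or C than 90.4% of the 32851 RefSeq promoters. That of Plekhg1 holds 4 and 44.3%, more than 20.1% of them. The medians over all promoters are 7 and 52.7%.

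Mrc2 encodes Endo180, also called uPARAP, a member of the mannose receptor family that takes up collagen from the cell surface for degradation in lysosomes. It is best known from fibroblasts and bone-forming cells, where it clears collagen during tissue remodelling. Its isotype signals were 7.40, 7.96, 8.04 and 7.69 for replicates 1 to 4, and its anti-IL-10R signals 9.48, 9.06, 9.46 and 8.87. Anti-IL-10R replicates 1 and 3 were highest, and the groups were 0.84 apart at their nearest arrays. The means were 7.77 ± 0.29 (SD, n = 4) and 9.22 ± 0.30, a difference of 1.45 ± 0.19 (SE), or 2.72-fold, and of 1.32 without isotype replicate 1.

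The rest of the mannose receptor family and the genes of collagen turnover gave no call. All 27 listed genes were measured and 14 tested. Limma called 0 of the 14 (2.53% of all tested genes), 1 had an unadjusted p below 0.05 (20% of all), and the median difference of the 27 was −0.04. The family member Ly75, an endocytic receptor of dendritic cells and lymphocytes, differed by 0.46 ± 0.16 (SE, limma adjusted p = 0.144), with means of 8.48 and 8.94 and no overlap. The macrophage mannose receptor Mrc1 was dim, at 4.14 and 4.07, as was Pla2r1, at 4.60 and 4.76. Plaur, which encodes the urokinase receptor that Endo180 associates with, differed by −0.21 ± 0.14 (adjusted p = 0.45), and Itgb1, an integrin chain of collagen receptors, by 0.57 ± 0.35 (adjusted p = 0.412).

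Markers of the cells in which Mrc2 is usually studied showed no call. The summed linear signal of 9 measured fibroblast and stroma markers ran from 312 to 356 with isotype antibody and from 307 to 365 with blockade. None of the 5 tested had an unadjusted limma p below 0.05, against 20% of all tested genes. Pdgfra, Dcn, Lum and Postn had group means between 3.15 and 4.04, and Col1a1, Col1a2, Col3a1, Pdgfrb and Fbln1 had group means between 5.28 and 6.62. For 11 measured macrophage and monocyte markers the sums were 730 to 878 and 708 to 986. Csf1r and Adgre1 had group means of 4.43 to 5.07, while the Cd68 means were 8.71 and 9.0, a difference of 0.30 ± 0.19 (SE, limma adjusted p = 0.417). That was the highest difference of the 11, whose median was −0.11 and lowest −0.48. Lyz2 had means of 5.75 and 5.27, and C1qa had 5.86 and 5.60.

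Car2 encodes cytosolic carbonic anhydrase, which interconverts carbon dioxide and bicarbonate. Red blood cells use it for carbon dioxide transport, and osteoclasts, kidney tubule cells and stomach parietal cells use it to supply protons or bicarbonate; its loss in people causes osteopetrosis with renal tubular acidosis. The isotype signals were 6.44, 7.26, 6.88 and 7.20 for replicates 1 to 4, and the anti-IL-10R signals 8.60, 8.05, 8.67 and 7.91. Isotype replicate 1 was again the lowest, and anti-IL-10R replicates 1 and 3 were again the highest. The means were 6.94 ± 0.38 (SD, n = 4) and 8.31 ± 0.39, a difference of 1.36 ± 0.23 (SE), or 2.57-fold. Without isotype replicate 1 it was 1.19.

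No other carbonic anhydrase or bicarbonate transporter was called. Of 23 listed genes 19 were measured and 8 tested. Limma called 0 of the 8 (2.53% of all tested genes), and 1 had an unadjusted p below 0.05 (20% of all). Car5b, a mitochondrial carbonic anhydrase, had means of 10.41 and 10.71 and a difference of 0.31 ± 0.17 (SE, limma adjusted p = 0.346). Car15 differed by 0.32 ± 0.14 (adjusted p = 0.232) and the transporter Slc4a8 by 0.24 ± 0.16 (adjusted p = 0.45). Car1 and Car3, which lie beside Car2 on chromosome 3, had isotype means of 4.10 and 5.23 and differed by −0.28 and −0.02. Of the 11 erythroid markers 5 were measured, with summed linear signals from 145 to 189 under isotype antibody and from 155 to 185 under blockade. Klf1, the erythroid transcription factor, had means of 5.17 and 5.26.

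Plekhg1 encodes a guanine nucleotide exchange factor with a pleckstrin homology domain, and it has been described in endothelial cells. Its isotype signals were 5.21, 5.42, 4.31 and 4.79 for replicates 1 to 4, and its anti-IL-10R signals 6.54, 6.39, 7.11 and 5.83. Both groups were widely spread, and only 0.40 separated the highest isotype array (replicate 2) from the lowest anti-IL-10R array (replicate 4). The means were 4.93 ± 0.49 (SD, n = 4) and 6.47 ± 0.53, a difference of 1.54 ± 0.30 (SE), or 2.90-fold. Its isotype mean is under the 5.24 limit, which leaves the size of the difference uncertain. It ranged from 1.32 without anti-IL-10R replicate 3 to 1.75 without anti-IL-10R replicate 4.

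Endothelial markers, 9 measured, had summed signals from 257 to 313 under isotype antibody and from 253 to 284 under blockade, and the junction protein gene Cdh5 had means of 5.47 and 5.28.

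Lrrc9 encodes a protein with leucine-rich repeats, a fold that serves protein binding in many unrelated proteins. Its isotype signals were 6.56, 6.67, 6.35 and 6.49 for replicates 1 to 4, and its anti-IL-10R signals 8.39, 8.15, 8.16 and 7.28. The isotype arrays were the tightest of the 7 genes, and anti-IL-10R replicate 4 lay well below the other anti-IL-10R arrays. The means were 6.52 ± 0.13 (SD, n = 4) and 7.99 ± 0.49, a difference of 1.48 ± 0.22 (SE), or 2.78-fold. It was 1.49 without isotype replicate 1 and 1.71 without anti-IL-10R replicate 4.

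Genes that share the Lrrc name share the repeat and need not share a function, and none was called. Of 59 measured genes 30 were tested. Limma called 0 (2.53% of all tested genes). At an unadjusted p below 0.05, 4 were lower and none higher, against 8.53% lower and 11.5% higher of all tested genes. Lrrc40 differed by −0.71 ± 0.20 (SE, limma adjusted p = 0.0923), Lrrc42 by −0.40 ± 0.13 (adjusted p = 0.118) and Lrrc59, a membrane protein of the endoplasmic reticulum, by −0.42 ± 0.14 (adjusted p = 0.142). Without isotype replicate 1, limma called these 3 lower (adjusted p = 0.0388, 0.0363 and 0.0119), and likewise after quantile normalization (0.044, 0.03 and 0.0393). In the fit without isotype replicate 1, 3.35% of tested genes were called higher and 5.9% lower, 9.25% in all. The anti-IL-10R arrays lay wholly below the isotype arrays for 3 of the 59 and above for 1, against 4.65% and 5.67% of all 22180 genes. The median difference of the 59 was −0.07, with a range from −0.71 to 0.76. The highest was that of Lrrc32, which lay below the filter on dim genes. Its means were 4.83 and 5.58, and its groups overlapped.

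Spo11 encodes the topoisomerase-like enzyme that cuts both DNA strands at the start of meiotic recombination, in germ cells of testis and ovary. Its isotype signals were 6.09, 6.74, 5.93 and 6.52 for replicates 1 to 4, and its anti-IL-10R signals 7.70, 7.80, 7.71 and 7.62. The anti-IL-10R arrays were almost equal, whereas the isotype arrays were spread. The means were 6.32 ± 0.37 (SD, n = 4) and 7.71 ± 0.07, a difference of 1.39 ± 0.18 (SE), or 2.62-fold. It was 1.31 without isotype replicate 1 and 1.26 without isotype replicate 3.

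The partners of Spo11 in meiosis were mostly dim, and none of those tested was called. Of 37 listed genes 34 were measured, and only 9 passed the filter. Gm960, which encodes the partner subunit of Spo11, had means of 5.03 and 5.16, and Mei4, Rec114 and Iho1, whose products are needed for the cut, had 3.63 and 3.69, 4.89 and 4.94, and 5.03 and 4.85. The meiotic recombinase Dmc1 had 4.69 and 4.42, and the synaptonemal complex gene Sycp1 had 3.35 and 2.80. Of the 9 tested genes limma called 0 (2.53% of all tested). At an unadjusted p below 0.05, 3 were lower and none higher, against 8.53% and 11.5% of all tested genes.

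Those 3 were Psmc3ip and Mnd1, which together help recombinases in strand exchange, and Syce2, of the synaptonemal complex. They differed by −0.64 ± 0.22, −1.08 ± 0.44 and −0.57 ± 0.23 (SE, limma adjusted p = 0.14, 0.21 and 0.204). Without isotype replicate 1 limma called all 3 lower, by −0.86, −1.45 and −0.80 (adjusted p = 0.00842, 0.035 and 0.0137), in a fit that called 5.9% of all tested genes lower. Spo11 was chosen for its rise, so nothing is read from its sign beside theirs. The largest difference above 0 among the 34 was 0.13, that of Gm960.

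Klk1b27 encodes a secreted serine protease of the kallikrein family, which lies in a cluster of similar tandem copies on chromosome 7. Such kallikreins are known from salivary glands, where they process growth factors and kininogen, and Klk1b27 has been described in Leydig cells of the testis. Its isotype signals were 4.02, 4.38, 6.14 and 4.69 for replicates 1 to 4, and its anti-IL-10R signals 7.45, 7.58, 7.22 and 7.11. Isotype replicate 3 stood above the other isotype arrays but still below every anti-IL-10R array. The means were 4.81 ± 0.93 (SD, n = 4) and 7.34 ± 0.21, a difference of 2.53 ± 0.39 (SE), or 5.79-fold, and the isotype mean lies below the limit for dim genes. The difference was 2.27 without isotype replicate 1 and 2.98 without isotype replicate 3.

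None of the other kallikrein genes tested was called. Of 28 listed genes 22 were measured and 9 tested. Among the Klk1b copies only Klk1b11 and Klk1b16 passed the filter on dim genes. Limma called 0 of the 9 (2.53% of all tested genes), and 1 had an unadjusted p below 0.05 (20% of all). Klk1b21, which overlaps Klk1b27 in RefSeq, had dim means of 3.16 and 3.21. Klk1b24 had 5.22 and 4.95, Klk1b22 had 3.91 and 3.47, and Klk1b9 had 4.24 and 4.46. Anti-IL-10R arrays lay wholly below isotype arrays for 1 of the 22, Klk1b8 (dim, 2.89 and 2.41), and above for 0. Over all 22180 genes these shares were 4.65% and 5.67%. Klk1b16 differed by −0.56 ± 0.39 (SE, limma adjusted p = 0.458), and its isotype replicate 1 had the highest value, 9.03. Over the 22 genes the differences ran from −0.56 to 0.38. Probes of similar copies may bind each other's RNA, so the gene behind the Klk1b27 row is uncertain.

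**Figure D2:**
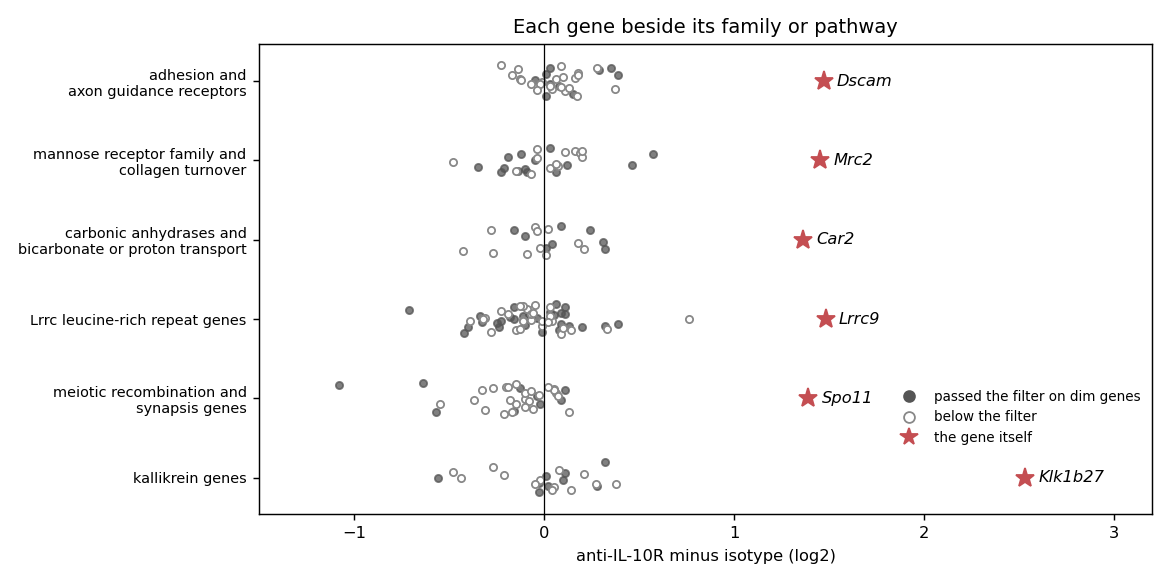
Difference anti-IL-10R minus isotype (log2, horizontal axis) for each measured gene of 6 families or pathways (filled points passed the filter on dim genes, open points did not), with the gene of interest as a star. The stars lie at 1.36 to 2.53, and no other point of the families shown lies above 0.76; the family of Plekhg1 is not shown.

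The Klk1b27 promoter is shown with that of Klk1b24, the most alike of the kallikrein promoters. Both are from GRCm38.p6, on the plus strand, at chr7:44052040-44052339 and chr7:44187986-44188285. In Klk1b27 the capitals mark the match to TGCTGAC, which lies on the minus strand and begins 72 bases before the start; in Klk1b24 they mark the 39 bases that differ from Klk1b27 or have no partner in it.
Klk1b27: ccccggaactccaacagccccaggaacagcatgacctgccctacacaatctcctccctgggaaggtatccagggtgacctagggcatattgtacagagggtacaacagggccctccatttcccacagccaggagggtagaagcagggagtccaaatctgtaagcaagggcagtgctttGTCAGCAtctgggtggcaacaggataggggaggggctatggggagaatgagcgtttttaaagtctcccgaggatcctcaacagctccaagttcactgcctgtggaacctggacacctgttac
Klk1b24: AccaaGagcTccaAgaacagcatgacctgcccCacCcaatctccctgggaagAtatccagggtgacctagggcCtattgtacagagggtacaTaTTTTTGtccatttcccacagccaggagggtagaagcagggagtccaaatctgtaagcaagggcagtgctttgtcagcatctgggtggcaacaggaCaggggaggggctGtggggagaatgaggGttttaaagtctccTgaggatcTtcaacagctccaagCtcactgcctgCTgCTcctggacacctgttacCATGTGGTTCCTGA
The aligned promoters were identical at 83.1% of 314 positions. TGCTGAC is the core of the recognition element of MAF factors. It was in 4.67% of all RefSeq promoters. Every other Klk1b promoter compared held 1 or 2 copies, and the part of the motif in the signals was not tested.

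Lrrc9 is the other gene whose promoter held a searched motif, and it is shown for its matches. It lies at chr12:72441616-72441915 in GRCm38.p6, on the plus strand, and capitals mark TGTGGT, the RUNX core, and TATAAA, here on the minus strand.
Lrrc9: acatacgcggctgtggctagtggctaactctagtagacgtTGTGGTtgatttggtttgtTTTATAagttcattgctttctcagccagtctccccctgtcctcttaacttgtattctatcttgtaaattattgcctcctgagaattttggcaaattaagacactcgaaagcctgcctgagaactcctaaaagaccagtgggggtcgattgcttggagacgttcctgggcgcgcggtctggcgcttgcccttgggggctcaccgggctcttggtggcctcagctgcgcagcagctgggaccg
TGTGGT was in 16.8% and TATAAA in 13.6% of all promoters. The motifs CACGTG (E-box, 7.15%), TTCNNNGAA (STAT factors, 8.3%) and TGANTCA (AP-1, 7.81%), searched on both strands like the others, were in none of the 4 promoters found. Those 4 were Dscam, Lrrc9, Plekhg1 and Klk1b27. Mrc2, Car2 and Spo11 have no entry in the promoter table. A match describes the letters only.

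The position of the genes was not used to choose them, so their neighbours could be tested. Other RefSeq genes overlap Dscam (2), Plekhg1 (3), Spo11 (1) and Klk1b27 (1, Klk1b21), and their part in these signals was not tested. The 3 nearest measured genes on each side gave 42 neighbours, 20 of them tested, with a median difference of 0.00 over the 42. Limma called 1 of the 20, where it called 2.53% of all tested genes. This was A930001A20Rik (row 17396172), a neighbour of Car2 of unknown function. Its isotype signals were 5.23, 5.54, 4.86 and 5.31 for replicates 1 to 4, and its anti-IL-10R signals 6.09, 5.73, 6.37 and 6.56. The groups did not overlap, but only 0.19 lay between them. The group means were 5.24 ± 0.28 and 6.19 ± 0.36 (SD, n = 4), and the gene rose by 0.95 ± 0.20 (SE; adjusted p = 0.046 in limma). The call was lost without the filter on dim genes (adjusted p = 0.0636) and with any array left out other than isotype replicate 1 (adjusted p 0.0666 to 0.141). Without isotype replicate 1 it held (adjusted p = 0.0279).

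The other neighbours held no call. Beside Lrrc9, Rtn1, a protein of the neuronal endoplasmic reticulum, differed by 0.65 ± 0.30 (SE, limma adjusted p = 0.268) and Pcnx4 by 0.42 ± 0.18 (adjusted p = 0.236), the latter without overlap. Beside Spo11, the growth factor gene Bmp7 differed by −0.35 ± 0.31 and the mRNA export gene Rae1 by −0.14 ± 0.12 (adjusted p = 0.592 and 0.571). Beside Dscam, Bace2, a protease related to the amyloid precursor secretase, was dim, with means of 5.35 and 5.06 and no overlap. Beside Plekhg1, Mthfd1l, of mitochondrial folate metabolism, differed by −0.23 ± 0.14 (adjusted p = 0.393), and beside Mrc2, the kinase gene Tlk2 by 0.25 ± 0.21 (adjusted p = 0.555).

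**Figure D3:**
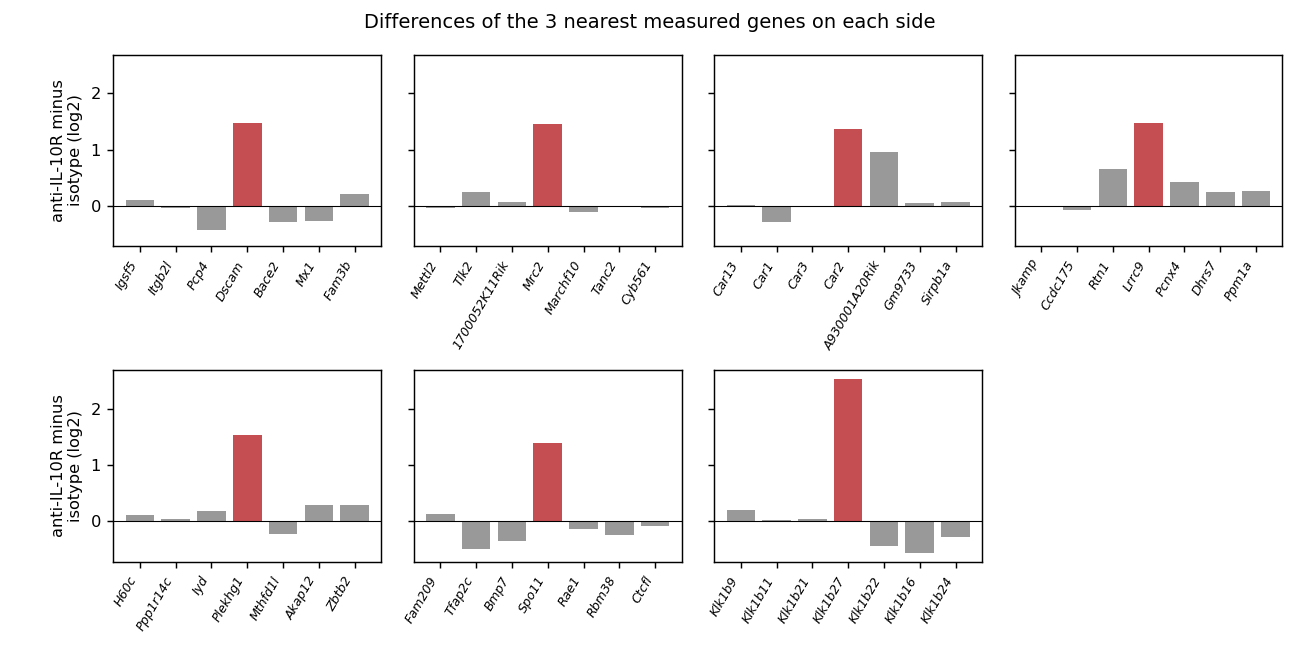
Difference anti-IL-10R minus isotype (log2, vertical axis) of each of the 7 genes (red) and of the 3 nearest measured genes on each side (grey), in RefSeq order. Grey bars run from −0.56 to 0.95, and the tallest is A930001A20Rik beside Car2.

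The 7 genes differed from each other in how the arrays ranked within a group. Isotype replicate 1 was the lowest isotype array for 4 of them (Dscam, Mrc2, Car2 and Klk1b27), and isotype replicate 3 for the other 3; over all tested genes isotype replicate 1 was lowest in 53.6%. Anti-IL-10R replicate 4 was the lowest anti-IL-10R array for 6 of the 7, all but Dscam, against 24.1% of the 141 other genes called higher and 34.3% of all tested genes. The spread within groups, pooled over both, was 0.26 for Dscam, 0.27 for Spo11, 0.29 for Mrc2, 0.36 for Lrrc9, 0.38 for Car2, 0.51 for Plekhg1 and 0.67 for Klk1b27 (SD). All were above the median of tested genes, 0.22, and that of Klk1b27 was larger than in 98.1% of them.

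**Figure D4:**
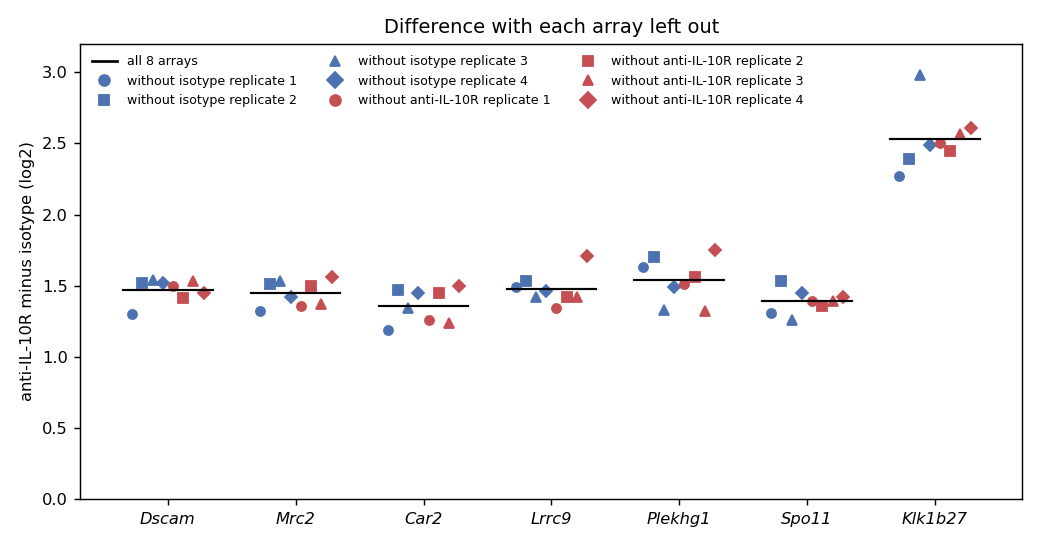
Difference anti-IL-10R minus isotype (log2, vertical axis) of the 7 genes with all 8 arrays (line) and with each array left out in turn (points). Values stay between 1.19 and 1.75, except for Klk1b27, which runs from 2.27 to 2.98.

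Likeness of profiles was measured as the root mean square difference over the 8 arrays after each gene was centred on its own mean, in log2 units. It depends mostly on the contrast the genes were chosen from, so it is a description. Mrc2 and Car2 were the closest pair of the 7, at 0.20, and Plekhg1 and Klk1b27 the furthest, at 1.04. Cd200r1, the inhibitory receptor for CD200, was the gene most like both Mrc2 (0.18) and Car2 (0.18), followed by Car2 (0.20) and Coch (0.23) for Mrc2, and by Mrc2 and Adamts6 (0.24), a secreted metalloprotease gene, for Car2. Over all tested genes the median was 0.77 for Mrc2 and 0.76 for Car2.

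Dscam was most like Mxd4 (0.19), a repressor that pairs with MAX, the transcription factor gene Maf (0.22) and Ctla2a (0.24), a cysteine protease inhibitor gene. Lrrc9 was most like Mrc2 (0.28), Car2 (0.31) and Cd200r1 (0.31), and Plekhg1 most like Lrrc9 (0.31), Cd200r1 (0.36) and Spo11 (0.39). For Spo11 the likest were Pisd-ps3 (0.25), Adamts6 (0.26) and Cd200r1 (0.26). The genes likest to Klk1b27 were Slco2a1, a prostaglandin transporter (0.40), Tnfsf13b, which encodes the B cell survival factor BAFF (0.55), and Maf (0.72). Its median over all tested genes was also the highest of the 7, at 1.39. Isotype replicate 3, the highest isotype array of Klk1b27, was also the highest isotype array of Slco2a1 (7.64, others 6.59 to 6.91) and of Tnfsf13b (7.29, others 5.33 to 6.19).

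**Figure D5:**
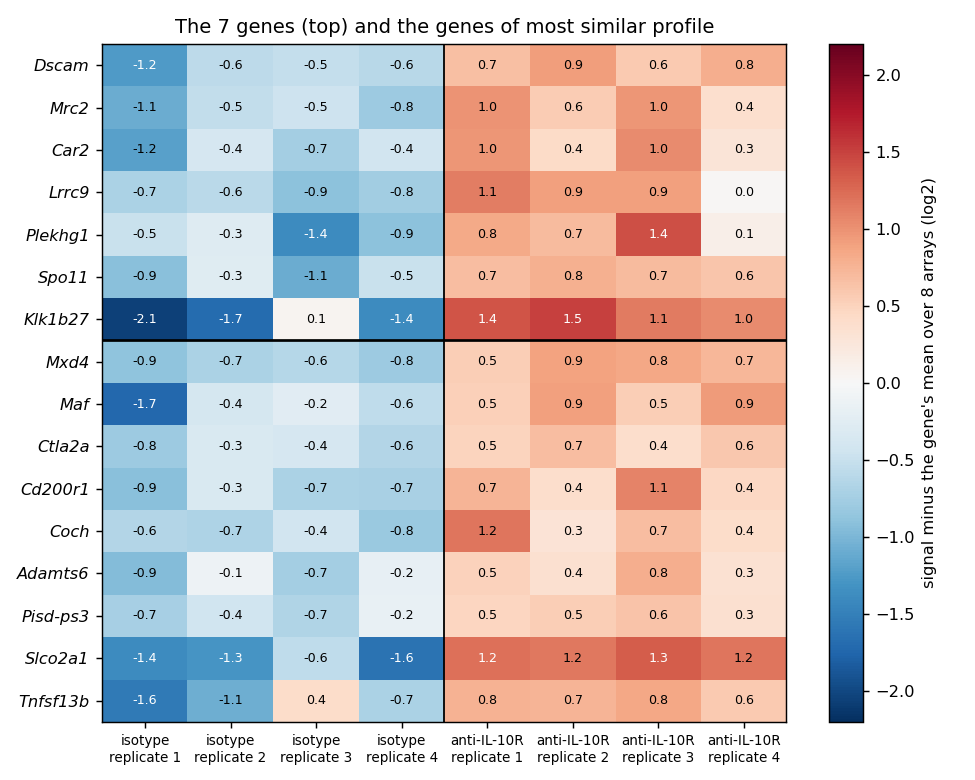
Signal minus each gene's mean over 8 arrays (log2, colour and printed value) for the 7 genes (above the line) and the genes of most similar profile (below it), by array. Isotype replicate 3 is near or above 0 in Klk1b27 and Tnfsf13b, and anti-IL-10R replicate 4 is near 0 in Lrrc9 and Plekhg1.

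Markers of other spleen cells were also summed. For 10 measured B cell markers the summed linear signal ran from 306 to 471 under isotype antibody and from 294 to 341 under blockade. Limma called 0 of the 3 tested, with 0 at an unadjusted p below 0.05, against 2.53% and 20% of all tested genes. Differences of the 10 ran from −0.67 to 0.03, with a median of −0.21. Anti-IL-10R arrays lay wholly below isotype arrays for 1 of the 10 and above for 0, against 4.65% and 5.67% of all 22180 genes. The summed signal was 215 to 268 and 208 to 235 for 10 neutrophil markers. It was 251 to 280 and 255 to 288 for 6 megakaryocyte and platelet markers. For 8 dendritic cell markers it was 1031 to 1261 and 881 to 1090. For 6 CD4 and regulatory T cell markers it was 736 to 872 and 968 to 1045, without overlap. The mean log2 signals of these 6 did overlap, at 6.01 to 6.37 and 6.00 to 6.17. Cd4 was dim at 5.19 and 5.07, and Ikzf2, the Helios gene, had 8.89 and 9.57. Foxp3 had 6.25 and 5.33 (limma adjusted p = 0.324), with isotype replicate 1 at 7.97 and the other isotype arrays at 5.46 to 5.95. For 4 NK cell markers the sums were 469 to 820 and 597 to 756, and the median difference was −0.02. Kit rose by 0.85 ± 0.15 (SE, limma adjusted p = 0.0294). This call was lost with any array left out other than isotype replicate 1 (0.0147 without it). Klre1 differed by −0.34 ± 0.24 (adjusted p = 0.477). Without isotype replicate 1 limma called Klre1 lower, by −0.60 (adjusted p = 0.0229). Ncr1 was dim at 4.08 and 4.17, as was Klrb1c at 4.22 and 4.10. The part of Ikzf2 and Kit in the differences of the 7 genes was not tested.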

How the data were processed

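RNA of sorted PD-1hi CD8 T cells was hybridised to Mouse Gene 2.0 ST arrays. The authors deposited 1 log2 signal per transcript cluster and array. The submitters' processing notes name Affymetrix Power Tools. Its version, the summarisation and the normalization were not given in the sources used here. Their number, 4 arrays a group, limits the precision. Of 41345 rows, 23521 carry 1 gene symbol in the platform annotation (1814 several, 16010 no entry), updated through gene IDs to RefSeq GRCm38.p6 (23328 rows matched); the brightest row stood for a gene. Sequences are from RefSeq GRCm38.p6; promoters were aligned with Biopython 1.88. The array annotation's build is not named, so no gene positions are given beyond promoters, chromosomes and gene order.

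Genes with a mean of at least 5.24 were fitted with limma 3.58.1 in R 4.3.3 (lmFit, eBayes, total df 9.59), anti-IL-10R minus isotype, two-sided, Benjamini-Hochberg over 12019 genes. The pipeline was tested on simulated data. Genes named were the 7, every family gene past the threshold, up to 4 per family by p, the 3 flanking genes a side and the 3 genes of likest profile, leaving predicted genes unnamed; other list genes with values were chosen after these were seen. The 7 genes, the lists and the motifs were chosen with earlier results of these data known. The alternatives were 2 other filters, quantile normalization, the mean of a gene's rows, a trended robust variance, the replicate number as a block and each array left out. The gene family of Plekhg1 is not reported here; it is counted among the family genes in the closing section.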

Additional observations from a re-analysis of the deposited data

Results flagged for a closer look

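In 170 groups of 4 arrays (85 genes named by rule), 15 arrays stood apart from the rest of their group by Dixon's criterion, which flags about 1 in 20 groups by chance; 8 of the 15 were isotype replicate 1. Of the 7 genes this concerned Dscam, with 7.47 on isotype replicate 1 against 8.11 on the next array. Isotype replicate 1 also stood low for Nck1 (5.84), Itgb1 (6.03), Lrrc59 (9.45), Psmc3ip (6.35), Stag3 (5.00) and Ppm1a (6.88), and high for Klk1b16 (9.03). Anti-IL-10R replicate 4 stood low for Lrrc42 (7.10), Mx1 (4.05) and Jkamp (9.03), and high for Plaur (5.48). The others were Ppm1a on anti-IL-10R replicate 3 (7.96), Iyd on anti-IL-10R replicate 1 (4.61) and Klk1b11 on isotype replicate 4 (5.82).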

How the results depend on the processing

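The differences of the 7 genes gave 70 recomputed values, from quantile normalization, the mean of all rows and each array left out. All kept their direction and moved by less than the SD within groups. The genes were chosen for their rise and their groups did not overlap, so leaving 1 array out could not reverse a direction. With 1 row a gene, the mean of all rows repeats the main value. After quantile normalization the differences ran from 1.30 (Car2) to 2.50 (Klk1b27). The counts of genes called depended on the processing. Genes called higher numbered 148, and 67 with no filter, 239 with the stricter filter (means of at least 6.97), 225 with a trended robust variance and 2 to 403 with an array left out. Genes called lower numbered 156, and 78 with no filter, 427 after quantile normalization and 1 to 709 with an array left out. Both highest counts were without isotype replicate 1 and both lowest without isotype replicate 4. Of the family genes 0 were called, and 2 with the stricter filter, 5 after quantile normalization, 1 with a trended robust variance and 0 to 10 with an array left out, 10 being without isotype replicate 1. With the replicate number as a block, 2 genes were called higher and 2 lower. Same-numbered arrays correlated by −0.16 to 0.12 in their deviations. With so few arrays, those values cannot decide whether the number pairs them. The causes were not tested. Signal over background could not be judged from these values, which limits the dim genes Plekhg1 and Klk1b27 most.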
